A study of Mus musculus with 16 samples.

Results

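The 10 circadian clock genes Per1, Per2, Per3, Dbp, Tef, Nr1d1, Nr1d2, Arntl, Clock and Ciart were examined in bulk RNA-sequencing libraries of the mouse dorsal hippocampus. They were taken by gene symbol from the 24972 genes of the deposited tables, and each symbol was found once. The 16 libraries were made from microdissected tissue labelled CA1, CA3 or dentate gyrus (DG), with the pieces of each animal pooled by subregion. All animals were ArcCreERT2::eYFPflx mice on a C57BL/6 background, aged 3 to 4 months, which carry a tamoxifen-inducible Cre driven by the promoter of the activity-regulated gene Arc and a Cre-dependent eYFP reporter. The 3 trained mice had learned active place avoidance (APA), in which a mouse on a rotating arena avoids an unmarked shock zone, and the 3 untrained mice had explored the same rotating arena with the shock always off. Tissue of both groups was taken after a retention test without shock on the day after the last training trials. CA1 was represented by 3 trained and 3 untrained libraries, CA3 by 3 trained libraries and untrained replicates 1 and 2, and DG by 3 trained libraries and untrained replicates 1 and 3. The time of day at which each animal's tissue was taken is not given in the sources used here. Mice were caged singly from the start of training and testing. Those kept in the same sound-attenuating cubicle during a run had undergone the same conditioning. Effects of the run and of training therefore cannot be told apart.

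The circadian clock of mammalian cells is a transcriptional feedback loop. The activators CLOCK and BMAL1 (encoded by Arntl) bind E-boxes and drive the Per and Cry genes, whose proteins return to the nucleus and inhibit the activators. A second loop runs through the nuclear receptors REV-ERBα and REV-ERBβ (encoded by Nr1d1 and Nr1d2), which repress Arntl at ROR response elements (ROREs). The PAR bZIP factors DBP and TEF carry the rhythm to D-boxes of output genes, and CIART (also called CHRONO) is a further repressor of the activators. In the hippocampus these transcripts follow the time of day, and Per1 also responds within a short time to neuronal activity and to glucocorticoids.

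The motifs through which the loop acts were searched for in the RefSeq promoter windows (GRCm38.p6), which run from 250 bases before to 50 bases after each annotated start. Windows were given for 9 members and Per2 is named only. The letters searched, on both strands, were CACGTG for the E-box, TTATGTAA for the D-box, GGTCA preceded by AANTN for the RORE and TGACGTCA for the cyclic AMP response element (CRE). Windows of 5 of the 9 members held at least 1 of these motifs, and stretches around these sites are shown so that the letters found can be read. Each line gives 30 bases on the strand of the gene, with the motif in capitals.
Per1 E-box, chr11:69098771-69098800, plus strand: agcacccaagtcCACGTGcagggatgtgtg
Tef E-box, chr15:81802534-81802563, plus strand: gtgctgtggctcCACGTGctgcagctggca
Ciart E-box, chr3:95882327-95882356, minus strand: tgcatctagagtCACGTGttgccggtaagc
Ciart E-box, chr3:95882269-95882298, minus strand: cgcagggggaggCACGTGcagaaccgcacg
Per3 D-box, chr4:151044852-151044881, minus strand: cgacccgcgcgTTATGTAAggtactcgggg
Per3 D-box, chr4:151044805-151044834, minus strand: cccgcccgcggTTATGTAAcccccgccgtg
Arntl RORE, chr7:113207528-113207557, plus strand: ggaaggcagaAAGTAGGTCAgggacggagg

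Counted from the annotated start, the first base of the motif was at -166 in Per1, at -127 in Tef, at -116 and -58 in Ciart and at -205 and -158 in Per3. In Arntl it was at 28 from a second annotated start, and the window of its first start held none. Ciart had another E-box at -44, and a second annotated start of Tef had one at -138. E-boxes were thus found for 3 of the 9 members with a window, a D-box for Per3 alone and a RORE for Arntl alone, while none of the 9 had the CRE. Of all 32851 RefSeq windows of this length, 7.15% held the E-box, 0.938% the D-box, 0.606% the RORE and 1.79% the CRE. These are shares of windows, whereas members were counted by gene. Per1, Tef, Arntl and Clock had several windows each, so the counts and the shares are not measured alike. A match is a description of these letters and not a measured binding site. The lack of a match does not show that a gene lacks the element outside these windows or in other letters.

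The libraries did not divide as their labels would have them, and this bears on each comparison of subregions. Prox1, the transcription factor that marks dentate granule cells, had normalized estimated counts of 2690 to 4786 in every library, including those labelled CA1 and CA3. The summed level of 6 granule cell markers was 9763 to 10189 in untrained and 7968 to 8462 in trained libraries labelled DG, 7611 to 9270 in those labelled CA1 and 6723 to 11564 in those labelled CA3. The summed level of 5 CA1 neuron markers was 3222 to 5210 in untrained CA1 but 1599 to 1986 in trained CA1, and that of 5 CA3 neuron markers was 1535 to 1827 in untrained CA1 and 2491 to 2663 in trained CA1. Subregion names are therefore used below as labels only, and the part that dissection had in the training comparisons was not tested. Xist, the transcript of the inactive X chromosome, was between 7601 and 19592 in all 9 trained libraries and between 25.5 and 52.4 in 6 of the 7 untrained libraries, so that sex-linked transcripts and training separated nearly the same libraries. The methods describe mice of both sexes in the trained and in the untrained group, which the high Xist of every trained library does not match, and no library was assigned a sex here. The exception was CA3 untrained replicate 1, which had an Xist value of 10587 beside a value of 201 for the Y-linked Ddx3y. DG trained replicate 3 had a Ddx3y value of 255 beside its Xist value of 7601, and both libraries differed in this from the other libraries of the same animal. In 7 libraries (all 3 of trained CA1, trained replicates 1 and 2 of CA3, and both of untrained DG) between 7567 and 9759 genes were listed at 0, against 3124 to 5944 in the other 9, so that this number differed between trained and untrained in opposite directions in CA1 and DG.

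**Figure D1:**
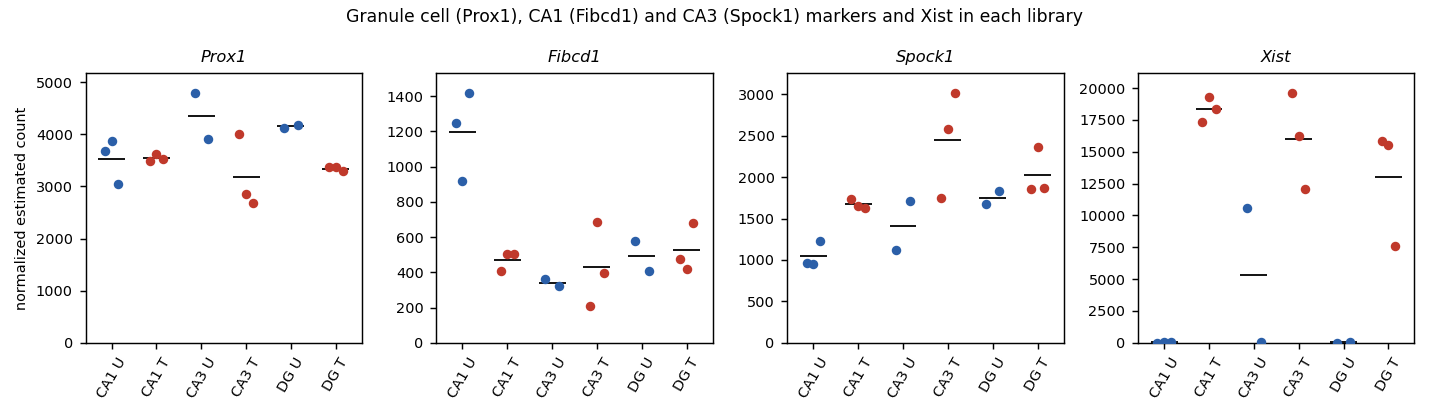
Normalized estimated counts (vertical axes, from 0) of the granule cell marker Prox1, the CA1 marker Fibcd1, the CA3 marker Spock1 and Xist in each library, by subregion label and training (U untrained in blue, T trained in red; line, group mean). Prox1 was high under every label, Fibcd1 was highest in untrained CA1, and Xist was high in every trained library and in 1 untrained library.

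Each value is a normalized estimated count, as the authors deposited it, and the sums per library were nearly equal (7607330 to 7984930), so that the read depth behind each is unknown. All 10 members had values of at least 49.3 in every library and passed the filter on low values in every comparison. Divided by the summed length of annotated exons, Tef was the most abundant member, with a median of 371 per kilobase over the 16 libraries. Nr1d1 (207), Nr1d2 (159) and Per1 (125) followed in this measure. Dbp (91.1), Per2 (90.1) and Clock (88.2) lay side by side with overlapping ranges over libraries. Per3 (60.7), Ciart (28.9) and Arntl (26.9) were the least abundant per kilobase, and the ranges of Ciart and Arntl overlapped. Tef varied least, with its highest library 1.22 times its lowest. Ciart varied most, by 2.08 times, followed by Dbp (1.89 times) and Arntl (1.69 times).

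Several members share annotated sequence with a neighbour, and it is not stated whether the counting used strand. In GENCODE, 263 exonic bases of Nr1d1 overlap Thra on the opposite strand, 539 of Dbp overlap Sphk2 and 193 of Tef overlap the antisense transcript Gm17597, so that reads there cannot be assigned with certainty. Arntl shares 33 exonic bases with the antisense gene Gm45355. Per3 lies within the span of Camta1 on the same strand, with no shared exonic base. Ciart lies within the span of the antisense gene C920021L13Rik and Clock overlaps Ube2n-ps1 and Gm43658, in each case with no shared exonic base.

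Trained and untrained libraries were first compared across the subregions, on log2(value + 2) with limma and Benjamini-Hochberg adjustment over all genes tested. Arntl was the member that passed an adjusted p of 0.05 in the combined comparison, 1 of 10, where 10.3% of the 14673 genes tested passed. In CA1 it was Per3, again 1 of 10, where 5.23% of 13588 genes passed. No member passed in CA3, where 0.852% of 13848 genes did, or in DG, where 3.39% of 13935 genes did. At an unadjusted p under 0.05 in the limma fit, 2 members were counted in the combined comparison (25.5% of all genes), 3 in CA1 (18.9%), 1 in CA3 (15.8%) and 2 in DG (19.5%). These counts of members were close to the shares over all genes. Their median log2 difference, trained minus untrained, was -0.08 in the combined comparison, with 8 of 10 below 0, beside -0.01 over all genes tested. It was -0.10 in CA1 (7 of 10 below 0), -0.02 in CA3 (6 of 10) and -0.12 in DG (9 of 10), where the median over all genes lay within 0.01 of 0.

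**Figure D2:**
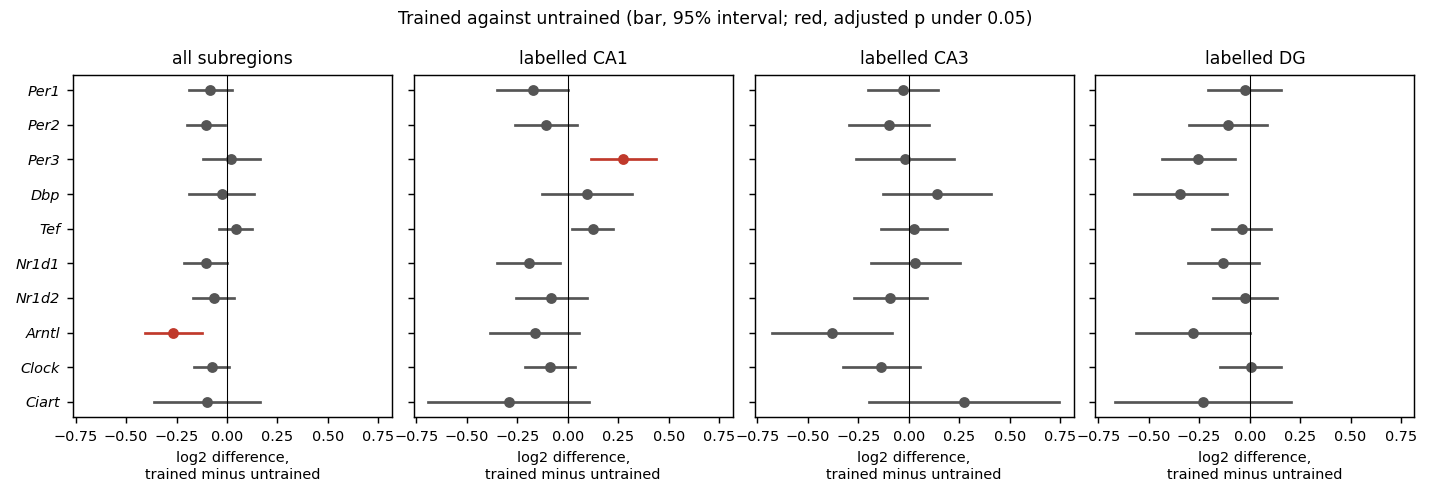
Log2 difference, trained minus untrained (horizontal axes), of each clock gene over all subregions and within the libraries labelled CA1, CA3 and DG, with 95% intervals from limma. Arntl over all subregions and Per3 in CA1 (red) had an adjusted p under 0.05, and the intervals of Ciart are the widest in each panel.

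Arntl, which encodes the activator BMAL1, fell in trained animals in the combined comparison. In CA1 its value was 241, 222 and 240.2 in untrained replicates 1 to 3 and 216, 198 and 213 in trained replicates 1 to 3. In CA3 it was 229.7 and 204 in untrained and 188, 171 and 142 in trained libraries. In DG it was 205 and 201 in untrained and 151, 172 and 178 in trained libraries. Within each of the 3 subregions the trained libraries all lay below the untrained ones without overlap, an order that 1.29% of the 14673 genes had. The combined log2 difference was -0.27 (standard error 0.069, 95% interval -0.41 to -0.12, limma adjusted p = 0.015), a fold of 0.832. The differences within subregions were -0.16 in CA1 (adjusted p = 0.433), -0.38 in CA3 (0.209) and -0.28 in DG (0.262), and did not pass. The summed level of the 5 CA3 neuron markers, most of which is Spock1, was higher in trained libraries without overlap under each label (1755 to 2638 in untrained and 2728 to 4261 in trained CA3, and 2529 to 2681 and 2790.0 to 3492 in DG). The summed level of 6 markers of the meninges was lower in trained CA1 (1085 to 1396 against 2081 to 2214) and trained CA3 (1055 to 1791 against 2184 to 2464), with overlap in DG (1615 to 1807 against 1428 to 1779). In the combined comparison 3 of the 5 CA3 neuron markers passed as higher and 1 as lower, while none passed in CA3 or DG alone. In the lists of 6 markers each, 2 of the astrocyte, 1 of the meningeal and 1 of the granule cell list passed as lower and none as higher, and none of the microglial, oligodendrocyte or choroid plexus lists passed in limma (0, 0 and 2 of 6 at an unadjusted p under 0.05). The part of any of these markers in the lower Arntl was not tested. All values are per tissue sample, in which fewer cells of a type and less RNA per cell cannot be told apart.

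The combined comparison treats the 16 libraries as independent although they come from 6 animals, so Arntl was also averaged within each animal after removing the differences between subregions. The 3 untrained animals then had Arntl values of 225, 205 and 215, and the 3 trained animals 183, 180.0 and 176. No trained animal reached an untrained one. The means of untrained replicate 1 and trained replicate 3 include the 2 libraries whose sex-linked transcripts differed from the others of the same animal. The animal means were not recomputed without these libraries. The log2 difference of the animal means was -0.26, with an adjusted p of 0.0368 in a limma fit across all genes (6.58% of which passed) and p = 0.10 in a two-sided exact permutation test of 3 against 3 animals, the smallest p that test allows. Per2 and Nr1d1 were the other members without overlap between the animals, with log2 differences of -0.10 (exact permutation p = 0.10) and -0.09 (exact permutation p = 0.10). All 3 had the trained animals below the untrained ones, an order found in 14.7% of genes. The adjusted p of Arntl in the combined limma fit was 0.158 without untrained replicate 1 and 0.0727 without trained replicate 2. It was 0.0544, with a log2 difference of -0.24, without CA3 untrained replicate 1 and DG trained replicate 3, and 0.377, with a log2 difference of -0.38, with a sex-linked score as a covariate. With that score none of the 14673 genes passed in limma (0, with 1702 at an unadjusted p under 0.05), so that the lost call is not particular to Arntl, and without the 2 libraries 978 of 14599 genes passed.

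Clock, which encodes the partner of BMAL1, did not pass in any comparison of training. Its values were 1355, 1308 and 1277 in untrained CA1 and 1201, 1202 and 1303 in trained CA1, with 1 trained library within the untrained range. In CA3 they were 1240.0 and 1266 in untrained and 1186, 1209.7 and 1034 in trained libraries, which did not overlap. In DG the untrained values of 1213 and 1148 and the trained values of 1217, 1145 and 1192 covered the same range. The combined log2 difference of Clock was -0.07 (95% interval -0.16 to 0.01, limma adjusted p = 0.278).

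**Figure D3:**
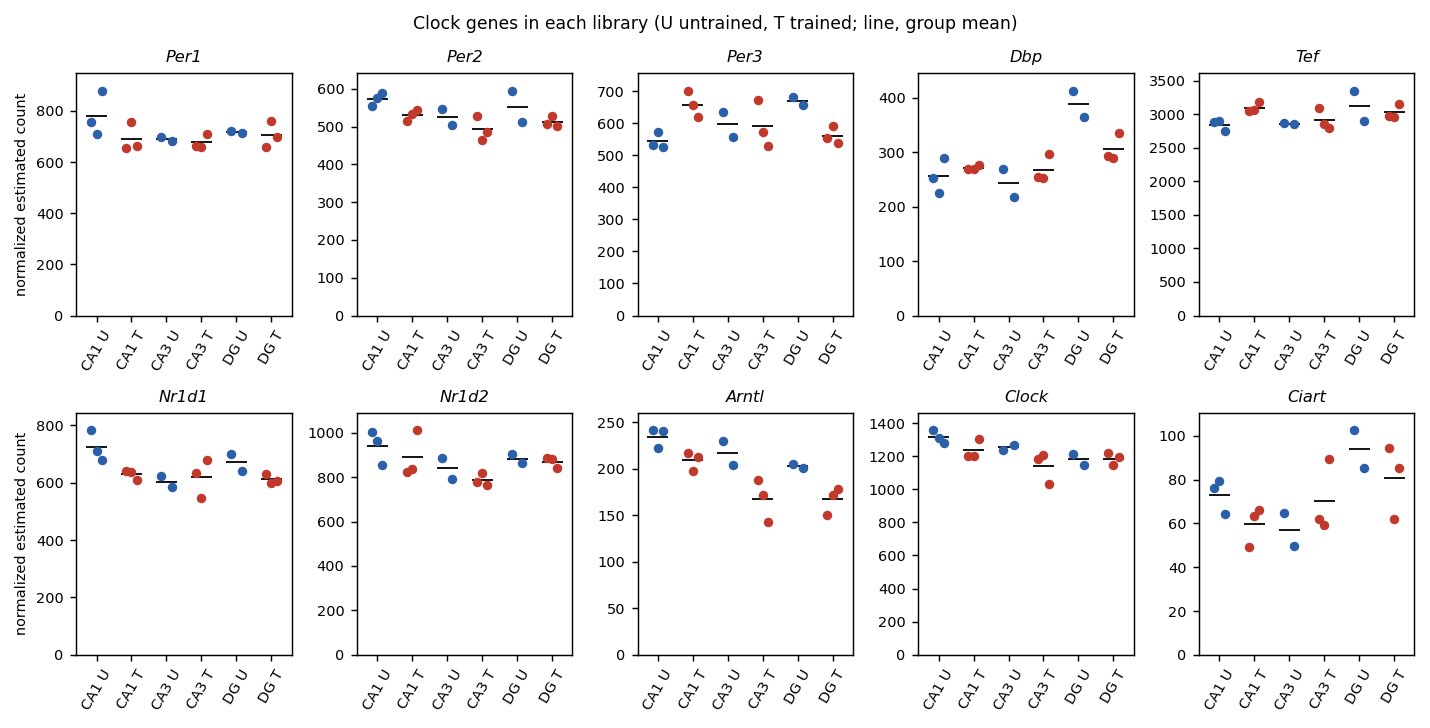
Normalized estimated counts (vertical axes, from 0) of the 10 clock genes in each of the 16 libraries, by subregion label and training (U untrained in blue, T trained in red; line, group mean). Arntl was lower in trained libraries under every label, Per3 was higher in trained CA1 and lower in trained DG, and Dbp was highest in untrained DG.

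Per3, a PERIOD paralog, rose in trained CA1 and did not in DG. In CA1 its value was 533, 571 and 525 in untrained replicates 1 to 3 and 699.6, 655 and 619 in trained replicates 1 to 3, so that each trained library lay above each untrained one. In DG it was 682 and 658 in untrained and 553, 593 and 539 in trained libraries, the opposite order, again without overlap. In CA3 the values were 636 and 557 in untrained and 672, 574 and 529 in trained libraries, which overlapped. An order of trained above untrained in CA1 and below in DG, both without overlap, was found in 1.67% of genes. The log2 difference in CA1 was 0.27 (standard error 0.076, 95% interval 0.12 to 0.43, limma adjusted p = 0.0407), a fold of 1.21. It was -0.25 in DG (95% interval -0.43 to -0.07, adjusted p = 0.106) and -0.02 in CA3 (95% interval -0.26 to 0.23).

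The difference between the training effects of Per3 in CA1 and DG was itself tested and was 0.53 (standard error 0.126, 95% interval 0.27 to 0.79, limma adjusted p = 0.0248). It was the only 1 of 10 members to pass this comparison, in which 2.75% of the 14673 genes passed, and 2 members had an unadjusted p under 0.05 (17.8% of genes). Between CA1 and CA3 no member passed (0.0273% of genes; 1 member at an unadjusted p under 0.05 in limma, beside 6.71% of genes), and the difference for Per3 was 0.29 (adjusted p = 0.664). No member passed between CA3 and DG (0.164% of genes; 1 member at an unadjusted p under 0.05 in limma, beside 11.7% of genes), where Per3 had a difference of 0.24 (adjusted p = 0.512). The summed level of 5 endothelial markers moved in the same directions as Per3, from 786 to 806 in untrained to 878 to 936 in trained CA1 and from 658 to 847 in untrained to 442 to 495 in trained DG. No endothelial marker passed in CA1 and 1 of 5 was lower in DG, and the part of these markers in the Per3 difference was not tested. Per3 also moved with the number of genes listed at 0. It was between 574 and 700 (median 658) in the 7 libraries with many such genes and between 525 and 636 (median 553) in the other 9. With the log2 number of genes at 0 as a covariate the CA1 minus DG difference of Per3 was 0.30 (adjusted p = 0.794), and the Per3 difference in CA1 was 0.46 (adjusted p = 0.654). With this covariate 0 of 14673 genes passed in the CA1 minus DG comparison in limma (1004 at an unadjusted p under 0.05), in place of 404, and 23 of 13588 genes passed in CA1, in place of 710, so that few calls of any gene were left in either. Without CA3 untrained replicate 1 and DG trained replicate 3 the CA1 minus DG difference of Per3 was 0.50 and its call was lost.

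The Per3 call in CA1 was lost without any of untrained replicates 1 to 3 or of trained replicates 1 and 2, with adjusted p between 0.0503 and 0.175. It was kept without trained replicate 3 (adjusted p = 0.0301). The CA1 minus DG difference of Per3 was lost without untrained replicate 1 (0.134), untrained replicate 3 (0.0632), trained replicate 1 (0.0695) or trained replicate 2 (0.0851), while its size stayed between 0.47 and 0.57 in all 6 such fits.

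**Figure D4:**
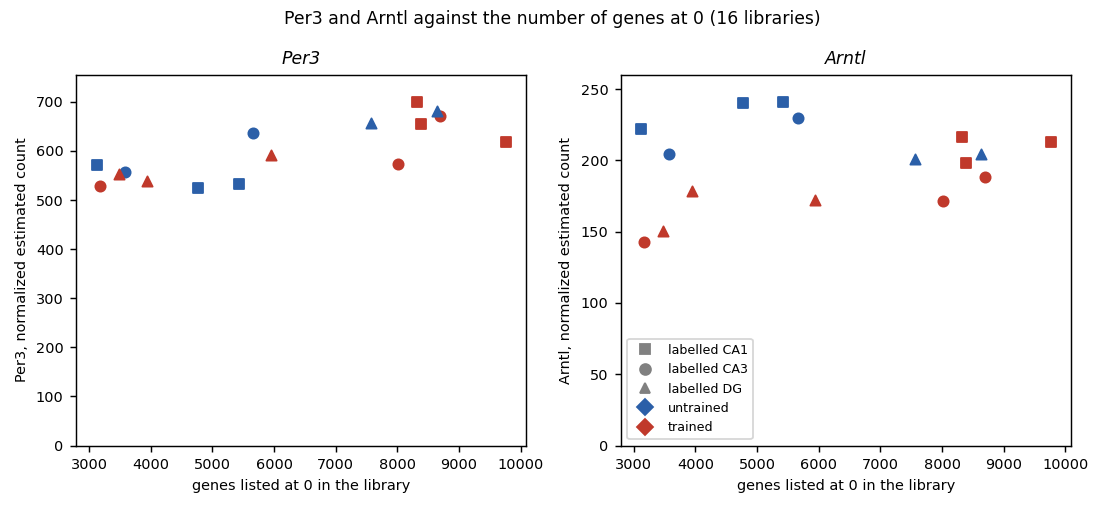
Normalized estimated counts of Per3 and Arntl (vertical axes, from 0) against the number of genes listed at 0 in each library (horizontal axes), with squares for CA1, circles for CA3 and triangles for DG, untrained in blue and trained in red. Per3 was 574 to 700 in the 7 libraries with 7567 or more genes at 0 and 525 to 636 in the other 9, and the ranges of the 7 and the 9 libraries overlapped for Per3 and for Arntl.

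Per1 and Per2, the light- and activity-responsive PERIOD genes, passed in no comparison. Per1 was 757, 711 and 877 in untrained CA1 and 655, 757 and 664 in trained CA1, with a log2 difference of -0.17 (95% interval -0.35 to 0.00, limma adjusted p = 0.272). This difference was -0.09 without untrained replicate 3 and -0.24 without untrained replicate 2 or trained replicate 2. In CA3 its values were 699.7 and 681 in untrained and 665, 659 and 710.1 in trained libraries, and in DG they were 721 and 712 in untrained and 658, 759 and 699 in trained libraries. The trained range of Per1 included an untrained library under each label. Over all subregions its log2 difference was -0.08 (95% interval -0.19 to 0.02, adjusted p = 0.328). Per2 was 553, 576 and 589 in untrained CA1 and 516, 534 and 543 in trained CA1, without overlap. It was 548 and 506 against 528, 465 and 485 in CA3 and 594 and 512 against 507, 527 and 501 in DG, untrained first, with overlap in both. The combined log2 difference of Per2 was -0.10 (95% interval -0.20 to -0.01, unadjusted p = 0.0314, limma adjusted p = 0.149).

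Among the repressors of the second loop, Nr1d1 was lower in trained CA1 without overlap but did not pass. Its values were 782, 709 and 678 in untrained CA1 and 642, 639 and 611 in trained CA1, with a log2 difference of -0.19 (95% interval -0.35 to -0.04, limma adjusted p = 0.149). In DG they were 699.8 and 641 in untrained and 629.5, 600.0 and 606 in trained libraries, also without overlap, and in CA3 they were 624 and 584 in untrained and 633, 547 and 680.3 in trained libraries, which overlapped. The combined log2 difference of Nr1d1 was -0.10 (95% interval -0.21 to 0.00, adjusted p = 0.209). Nr1d2 was 1003, 962 and 856 in untrained CA1 and 823, 838 and 1010.1 in trained CA1, where trained replicate 3 was above all untrained libraries. It was 887 and 791 against 776, 821 and 764 in CA3 and 905 and 863 against 884, 883 and 841 in DG, untrained first, with overlap in both. Its combined log2 difference was -0.07 (95% interval -0.17 to 0.03, adjusted p = 0.422).

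Ciart had the widest spread within groups, with an SD of 0.253 on the log2 scale against 0.068 to 0.137 for the other 9. In CA1 it was 76.0, 79.2 and 64.1 in untrained and 49.3, 63.4 and 66.0 in trained libraries. In CA3 it was 64.8 and 49.6 in untrained and 61.8, 59.4 and 89.3 in trained libraries, and in DG 102 and 85.4 in untrained and 94.5, 61.9 and 85.4 in trained libraries. Trained and untrained libraries overlapped under each label. The combined log2 difference of Ciart was -0.10 with a 95% interval of -0.36 to 0.16 (limma adjusted p = 0.677), so that a change of about the size seen for Arntl was not detectable for Ciart in these libraries.

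Of the PAR bZIP factors, Dbp was the member that passed between labels. In DG its values were 412 and 364 in untrained and 293, 288 and 334 in trained libraries, without overlap. In CA1 they were 252, 225 and 289 in untrained and 269.6, 268 and 276 in trained libraries, and the 3 trained values lay within the untrained range. In CA3 they were 268 and 218 in untrained and 254, 252 and 296 in trained libraries. The log2 difference of Dbp was -0.34 in DG (95% interval -0.58 to -0.11, limma adjusted p = 0.0922), 0.10 in CA1 (adjusted p = 0.689) and 0.14 in CA3 (adjusted p = 0.607). The difference between the effects in CA1 and DG was 0.44 (unadjusted p = 0.0114, adjusted p = 0.139) and that between CA3 and DG was 0.48 (unadjusted p = 0.00855, adjusted p = 0.263), and neither passed. With each animal left out in turn the Dbp difference in DG was -0.43 to -0.25. It passed without untrained replicate 3, which leaves 1 untrained DG library (-0.43, adjusted p = 0.0280), and not without any of the other 4 animals, where without untrained replicate 1 it was -0.25 (adjusted p = 0.272). In the same trained DG libraries the summed levels of the granule cell markers (1 of 6 passed as lower), the endothelial markers (1 of 5) and 6 oligodendrocyte markers (14042 to 15212 against 15876 to 20352, none of the 6 passed) lay below those of the untrained ones. The sums can hide single markers that overlapped, and their part in the Dbp values was not tested.

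Tef, the other PAR bZIP factor, was the steadiest member. It was 2885, 2891 and 2746 in untrained CA1 and 3039.6, 3062 and 3182 in trained CA1, without overlap, with a log2 difference of 0.12 (95% interval 0.02 to 0.22, limma adjusted p = 0.164). In CA3 it was 2866 and 2851 in untrained and 3095, 2853 and 2794 in trained libraries. In DG the untrained libraries, at 3342 and 2892, enclosed the trained ones, at 2973, 2951 and 3158. The combined log2 difference of Tef was 0.04 (95% interval -0.04 to 0.13, adjusted p = 0.529), the narrowest interval of the 10.

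Counted by order alone, the trained libraries lay above all untrained ones for 2 members in CA1 (Per3 and Tef) and below them for 3 (Per2, Nr1d1 and Arntl), where 12.9% and 11.1% of the genes tested did. In CA3 no member had trained libraries above (17.2% of genes) and 2 had them below (Arntl and Clock, 16.7%). In DG no member had them above (17.5%) and 4 had them below (Per3, Dbp, Nr1d1 and Arntl, 18.2%). Arntl was the member found below in all 3 lists.

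Levels were next compared between the labelled subregions, averaged over both training groups in one limma fit of all 16 libraries. Dbp was lower in CA1 than in DG, with means of 263 ± 22.4 (SD, n = 6) and 338 ± 51.4 (SD, n = 5). The log2 difference, CA1 minus DG, was -0.39 (standard error 0.080, 95% interval -0.55 to -0.22, limma adjusted p = 0.0083), a fold of 0.766, and Dbp was the 1 of 10 members that passed, where 4.05% of genes did. At an unadjusted p under 0.05 it was 4 of 10 members and 19.6% of genes. Of the 5 DG libraries 4 lay above all CA1 libraries, at 293 and above against at most 289, and the lowest DG library was at 288. Without untrained replicate 1 or trained replicate 2 the adjusted p of Dbp was 0.0524 or 0.0531. In CA3 the Dbp mean was 257 ± 28.4 (SD, n = 5), and its log2 difference from DG was -0.43 (95% interval -0.61 to -0.26). The unadjusted p was 2.8e-05 and the limma adjusted p was 0.103, in a comparison where 0.00682% of genes passed and no member did, with 2 members at an unadjusted p under 0.05 in limma (6.86% of genes).

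The other members did not pass in any comparison of labels. Ciart was 85.9 ± 15.2 (SD, n = 5) in DG, 66.3 ± 10.6 (SD, n = 6) in CA1 and 65.0 ± 14.7 (SD, n = 5) in CA3. Its log2 difference was -0.38 for CA1 minus DG (95% interval -0.68 to -0.08, limma adjusted p = 0.137) and -0.45 for CA3 minus DG (adjusted p = 0.560), and the ranges overlapped. Arntl was highest in CA1, with 222 ± 16.6 (SD, n = 6) in CA1, 187 ± 33.0 (SD, n = 5) in CA3 and 181 ± 22.1 (SD, n = 5) in DG. Its log2 difference was 0.26 for CA1 minus DG (95% interval 0.09 to 0.44, adjusted p = 0.0714) and 0.22 for CA1 minus CA3 (adjusted p = 0.305). Clock was 1274 ± 61.6 (SD, n = 6) in CA1, 1187 ± 90.9 (SD, n = 5) in CA3 and 1183 ± 34.5 (SD, n = 5) in DG, with a log2 difference of 0.11 for CA1 minus DG (adjusted p = 0.227). Between CA1 and CA3, where 0.988% of genes passed, no member did and 3 had an unadjusted p under 0.05 in limma (10.2% of genes). They were Arntl, Nr1d1 (0.14, adjusted p = 0.363) and Nr1d2 (0.17, adjusted p = 0.240), all with the higher level in CA1. Per3 was the most even member between labels, at 600.5 ± 69.7 (SD, n = 6) in CA1, 594 ± 58.5 (SD, n = 5) in CA3 and 605 ± 63.1 (SD, n = 5) in DG, while its trained and untrained groups differed in opposite directions in CA1 and DG.

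A further 30 genes of the clock, its kinases and ligases and its output pathways were looked up from a list, and all were tested. In the combined comparison 1 of them was higher and 2 were lower in trained animals, where 6.28% of genes passed as higher and 4.06% as lower. Their median log2 difference was -0.01, beside -0.01 over all genes. In CA1 1 was higher and 1 was lower (3.53% and 1.70% of genes), and in CA3 and DG none passed in limma (0.852% and 3.39% of genes), with 3 and 7 of 30 at an unadjusted p under 0.05 (15.8% and 19.5% of genes). The cryptochromes Cry1 and Cry2, the nuclear receptors Rora and Rorb, the activators Npas2 and Arntl2 and all 10 kinases and ligases did not pass in any of the 4 comparisons. Cry1 in DG came nearest, at 139 and 154 in untrained and 102, 97.7 and 103 in trained libraries without overlap, with a log2 difference of -0.53 (limma adjusted p = 0.0711).

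Bhlhe40, which encodes the E-box repressor DEC1, fell in trained animals. Its value was 964, 951 and 1048 in untrained CA1 and 639, 715 and 591 in trained CA1. In CA3 it was 759.8 and 659 in untrained and 616, 573 and 654 in trained libraries, and in DG 834 and 746 in untrained and 736, 704 and 753 in trained libraries. Only in DG did the groups overlap. In CA1 the log2 difference was -0.61 (limma adjusted p = 7.31e-05, standard error 0.077) and -0.33 in the combined comparison (standard error 0.068, adjusted p = 0.00377). The effects in CA1 and DG differed by -0.50 (adjusted p = 0.0272). The combined call of Bhlhe40 was lost without untrained replicate 1 (adjusted p = 0.065), and with the number of genes at 0 as a covariate the CA1 difference was -0.60 (adjusted p = 0.382). The same libraries differed in the CA1 marker list given above, and the part of this in the value of Bhlhe40 was not tested.

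Nfil3, which encodes the D-box repressor E4BP4, was also lower in the combined comparison, with a log2 difference of -0.38 (limma adjusted p = 0.0115, standard error 0.094). Its CA1 values were 86.1, 89.6 and 88.0 in untrained and 76.9, 66.1 and 56.5 in trained libraries. In CA3 it was 104 and 90.6 in untrained and 74.1, 60.7 and 67.3 in trained libraries, and in DG 87.1 and 81.0 in untrained and 74.7, 75.1 and 68.4 in trained libraries. Like Arntl, Nfil3 had every trained library below every untrained one under each of the 3 labels. Its call was lost without untrained replicate 1 or 2 or trained replicate 2 or 3, with adjusted p of 0.103, 0.0503, 0.0593 and 0.0561, and without the 2 libraries that differ from their animal (-0.33, adjusted p = 0.0614).

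Usp2, a rhythmically expressed deubiquitinase, followed Per3 in its values by group. It was 615, 613 and 545 in untrained CA1 and 716, 724 and 701 in trained CA1, without overlap. In DG it was 637 and 801 in untrained and 634, 587 and 581 in trained libraries, in the opposite order. The log2 difference was 0.27 in CA1 (limma adjusted p = 0.0350) and -0.25 in DG (adjusted p = 0.170), and their difference was 0.52 (adjusted p = 0.0435). The CA1 call of Usp2 was lost without any 1 of the 6 animals (adjusted p of 0.0527 to 0.131). It was also lost in limma with upper-quartile rescaling (0.0584) and with all 16 libraries in one fit (0.0925). With the log2 number of genes at 0 as a covariate the CA1 difference of Usp2 was 0.35 (limma adjusted p = 0.864), where 23 of 13588 genes passed. Tspan4, which encodes a tetraspanin, was low in all libraries, at 18.9 to 47.5, and had a combined log2 difference of 0.56 (adjusted p = 0.0286). That call was lost without untrained replicate 1 (0.194) or 2 (0.0674) or trained replicate 2 (0.150) or 3 (0.117), without the 2 libraries that differ from their animal (0.138) and with 1 value per animal (0.0592).

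**Figure D5:**
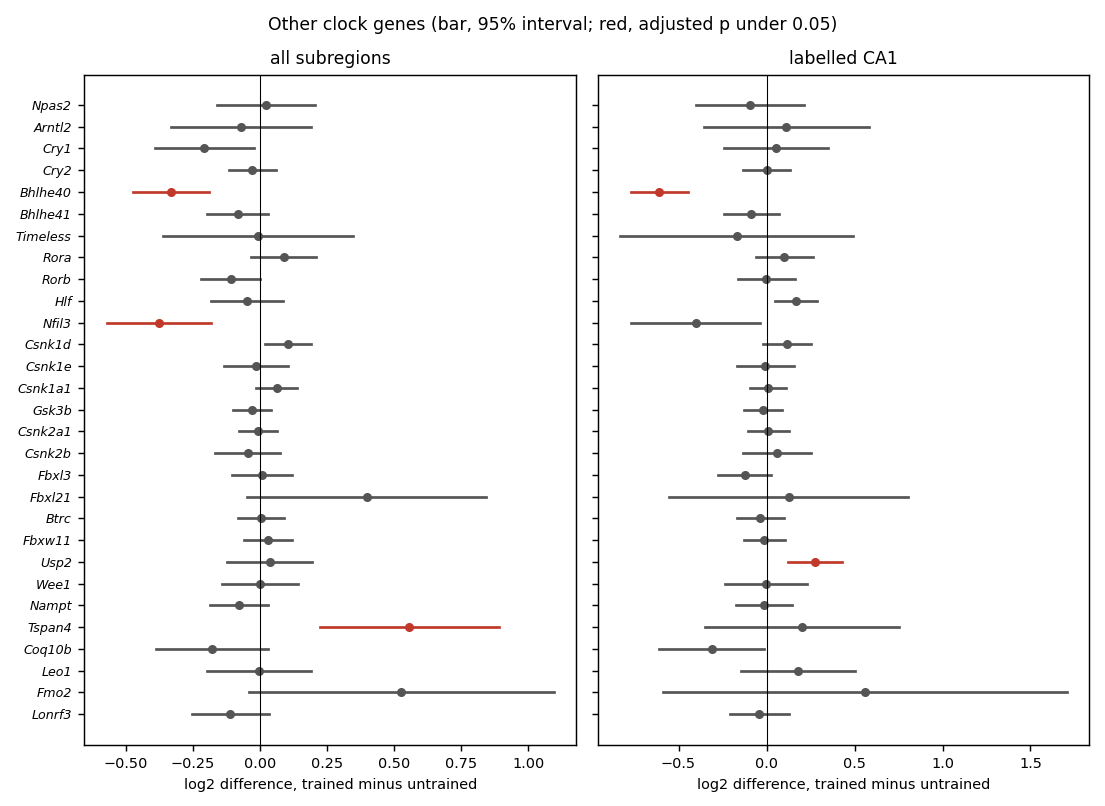
Log2 difference, trained minus untrained (horizontal axes), of the other listed clock genes over all subregions and in CA1, with 95% intervals from limma. Bhlhe40 and Nfil3 (lower) and Tspan4 (higher) over all subregions, and Bhlhe40 (lower) and Usp2 (higher) in CA1, had an adjusted p under 0.05 and are red.

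The inputs that reach the clock in neurons, activity and glucocorticoids, were read from lists of 14 genes each. Of the immediate early genes 2 were lower and none was higher in trained animals in the combined comparison, Egr1 (log2 difference -0.51, limma adjusted p = 0.0251) and Egr2 (-0.81, adjusted p = 0.0389), where 4.06% of genes passed as lower. In CA1 4 of the 14 were lower (1.70% of genes), and both comparisons had 7 of 14 at an unadjusted p under 0.05 (25.5% of genes combined and 18.9% in CA1). The 5 CA1 neuron markers were lower in the same trained CA1 libraries, with a median log2 difference of -1.01 and 2 of 5 past the test, and their part in this count was not tested. In CA3 and DG none of the immediate early genes passed, with 0 and 4 of 14 at an unadjusted p under 0.05 in limma (15.8% and 19.5% of genes). Of the glucocorticoid-induced genes 4 were higher and 1 was lower in the combined comparison (6.28% and 4.06% of genes). At an unadjusted p under 0.05 there were 7 of 14 in the combined comparison (25.5% of genes). In CA1 2 of them were higher (3.53% of genes), with 10 of 14 at an unadjusted p under 0.05 (18.9% of genes). The CA1 difference was above 0 for 9 of the 14 and below 0 for 5. Trained and untrained CA1 libraries also differed in sex-linked transcripts and in the CA1, CA3 and meningeal marker lists. The part of this in the counts was not tested. In CA3 and DG none passed in limma, with 6 and 5 of 14 at an unadjusted p under 0.05 (15.8% and 19.5% of genes). Among the genes that passed in the combined comparison were Tsc22d3 (0.33, adjusted p = 0.000854), Plin4 (0.82, adjusted p = 0.00193) and Ddit4 (0.33, adjusted p = 0.00304), while Klf9, a glucocorticoid target that is also under clock control, was lower (-0.24, adjusted p = 0.00117). Per1, which responds to both inputs, did not pass in any comparison.

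For 9 of the members, the genes whose log2 values were most alike over the 16 libraries were listed as a description, since libraries of 6 animals with shared sex-linked and dissection differences are not independent points. Arntl had the closest, with a Pearson r of 0.93 for Gabrb2, a GABA-A receptor subunit, 0.92 for Nr3c1, the glucocorticoid receptor, and 0.91 for the transcription factor Tcf4. For Per2 r was 0.92 for 2900092D14Rik. Dbp was nearest to Dtnbp1 (0.91), Clock to Resf1 (0.89), Nr1d2 to Zfp958 (0.83), Per1 to Sbk1 (0.83), Tef to Aox1 (0.81), Ciart to Aco1 (0.80) and Nr1d1 to Nsd2 (0.78).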

How the data were processed

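The deposited tables hold a signal per gene, a normalized estimated count. Per the study's methods and labels, the authors trimmed and aligned reads from rRNA-depleted libraries (STAR), counted them per gene (Salmon) and normalized the counts. The values are not whole numbers, so no count test was used and depth is unknown. Values were compared as log2(value + 2) with limma 3.58.1 in R 4.3.3 (mean-variance trend, robust estimation, Benjamini-Hochberg adjustment over all genes tested, adjusted p under 0.05). Genes had a value of at least 10 in at least 3 libraries (CA1) or 2 libraries (other comparisons). The combined fit had subregion as a term. Differences between training effects and between subregions came from 1 fit of 6 groups. A fold is on the log2(value + 2) scale and understates changes of low genes. The method was tested on simulated data.

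Libraries of any subregion with the same training and number were taken as 1 animal, as the labels number them. Deviations from group means correlated between -0.108 and 0.092 across genes in 14 same-animal pairs. This range lies within that of 7 pairs of different animals (-0.180 to 0.119), so it does not settle which libraries share an animal. P-values measure the spread between these libraries, some of which share an animal. Positions are those of GENCODE for GRCm38, where 24467 of 24972 symbols were found. The labels name GRCm38, the methods a mixed name, and counting by strand is not stated. The members and gene lists were chosen with earlier results of these data known, which adds no independent support. Named beside the members were the listed clock genes past the threshold (Cry1 in DG was added after its values were seen), overlapping genes, and the most similar genes. Some items of these lists are not reported here. Alternatives were the pseudocount, filter, scaling, array weights, replicate block, covariates and animals left out. The fits without the 2 libraries that differ from their animal and with 1 value per animal were chosen after seeing the data.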

Additional observations from a re-analysis of the deposited data

Results flagged for a closer look

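The training effects on Per3 in CA1 and in DG differed by 0.53 on the log2 scale (limma adjusted p = 0.0248), with a log2 difference of 0.27 in CA1 and -0.25 in DG. All 3 trained CA1 libraries lay above the 3 untrained ones and all 3 trained DG libraries lay below the 2 untrained ones. In 7 libraries (all 3 of trained CA1, trained replicates 1 and 2 of CA3 and both of untrained DG) many genes were listed at 0, and Per3 had a median of 658 in these 7 against 553 in the other 9, with ranges that overlapped. With the log2 number of genes at 0 as a covariate the difference was 0.30 (adjusted p = 0.794), and 0 of 14673 genes passed in limma (1004 at an unadjusted p under 0.05). Without CA3 untrained replicate 1 and DG trained replicate 3 it was 0.50 and did not pass.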

How the results depend on the processing

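The number of members past an adjusted p of 0.05 was recomputed under each alternative. In CA1 it was 0 in place of 1 with upper-quartile rescaling, without robust estimation, with the replicate block, with the sex-linked score, with the number of genes at 0 as a covariate and with all 16 libraries in one fit. The combined count was 0 with the sex-linked score and without the 2 libraries that differ from their animal. The CA1 minus DG count was 0 with the number of genes at 0 and without those 2 libraries. The count was 1 in CA3 (Arntl, -0.48, adjusted p = 0.0283) with the number of genes at 0, and 1 with array weights for CA1 against CA3 (Nr1d1) and for CA3 against DG (Dbp). Leaving out each animal gave 0 to 1 in the combined, CA1, DG, CA1 minus DG, CA1 against DG and CA3 against DG comparisons. Over all genes, 0 of 14673 passed in limma in the combined comparison with the sex-linked score (1702 at an unadjusted p under 0.05) and 6 of 13588 in CA1, and 0 of 14673 passed in CA1 minus DG with the number of genes at 0 (1004 unadjusted) and 23 of 13588 in CA1, so these lost calls are not particular to the members. Without the 2 libraries 978 of 14599 genes passed in the combined comparison and 94 in CA1 minus DG. The cause was not tested.

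The replicate number is shared by different animals in the training comparisons (correlations of deviations from -0.180 to 0.119 in 7 pairs). With the replicate block Per3 in CA1 had an adjusted p of 0.0697 and Usp2 of 0.0567, and Per3 and Nr1d1 in CA3 turned to 0.06 and -0.0372. With animals as the block in the comparisons of labels, Dbp kept its call (adjusted p = 0.0106), as did the CA1 minus DG difference of Per3 (0.0282).

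The differences that changed sign were those of members that had not passed in the comparison concerned. With array weights Dbp combined was 0.064 and Nr1d1 in CA3 was -0.0859. With the sex-linked score Per3 combined was -0.157, Dbp 0.127 and Ciart 0.115, in CA1 Nr1d2 was 0.48, Arntl 0.346 and Clock 0.19, in CA3 Tef was -0.0116, and in DG Dbp was 0.067, Tef 0.179 and Ciart 0.141. This score separates nearly the same libraries as training. With the number of genes at 0 Per3 combined was -0.0267, Dbp in CA1 was -0.199, and in DG Per1 was 0.191, Per2 0.0169, Nr1d2 0.0174 and Clock -0.0682. Without the 2 libraries Per3 in CA3 was 0.0783 and Nr1d2 in DG was 0.0. With each animal left out the ranges were -0.0249 to 0.0745 (Per3 combined), -0.13 to 0.0495 (Dbp combined), -0.111 to 0.0783 (Per3, CA3), -0.0095 to 0.29 (Dbp, CA3), -0.0372 to 0.12 (Nr1d1, CA3), -0.0176 to 0.0561 (Tef, CA3), -0.0793 to 0.0234 (Per1, DG), -0.143 to 0.0655 (Tef, DG), -0.0578 to 0.0104 (Nr1d2, DG) and -0.0338 to 0.0448 (Clock, DG). With 2 untrained libraries in CA3 and DG, leaving one out assumes that the lone library varies like the others. Read depth is unknown, so no limit from depth can be given.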
